A study of Mus musculus with 2 samples.

Results

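The Etv4-only promoter regions are stretches of chromatin that were recovered with an antibody to the transcription factor Etv4, that lay near the start of a gene, and that had no counterpart in the list made with an antibody to the related factor Etv5. They were chosen by the measured region lists themselves. A member is a region of the Etv4 list on a nuclear chromosome that shares no base with any region of the Etv5 list and whose midpoint lies within 2 kb of an annotated transcript start. The rule was met by 3470 of the 13636 Etv4 regions, or 25.4% (exact 95% interval 24.7 to 26.2). The series as a whole holds 21933 regions in both lists.

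The data comprised 2 ChIP-seq libraries of mouse EpRas cells, 1 per antibody. EpRas is an EpH4 mammary gland epithelial line carrying oncogenic H-Ras, and both libraries came from cells in medium with 4% fetal bovine serum that had received 1 ng/ml TGF-β3 for 1.5 h. The Etv4 antibody was a rabbit polyclonal and the Etv5 antibody a mouse monoclonal, so antibody and factor cannot be told apart. Untreated cells, parental EpH4 cells and an input library were not analysed here. The lists give positions only, with no read count or height per region, so the depth is unknown, no test between the antibodies was possible, and absence from the Etv5 list means that no region was called there. All intervals below are 95% intervals, exact for a share and by Newcombe's method for a difference, and cover counting error only, since neighbouring regions are not independent and no replicate library exists.

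Etv4 and Etv5 belong to the PEA3 group of ETS transcription factors, which act downstream of receptor tyrosine kinases, Ras and ERK. ETS proteins recognise a GGAA core, and their preferred flanks give the motif CCGGAAGT or CAGGAAGT. The first form contains a CpG dinucleotide and is a common element of CpG island promoters, the CpG-dense and usually unmethylated starts of most broadly expressed genes. The base pairs upstream of a start hold the core promoter, where general transcription factors and RNA polymerase II assemble.

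The members with the most ETS sites are shown first. They are extremes, since 85.9% of members held no site and 445 of the 488 with a site held 1. Each stretch below is read 5′ to 3′ along the strand of the nearest gene, from the mm10 (GRCm38) assembly, and the capitals mark every match to CCGGAAGT or CAGGAAGT on either strand, so that a site on the opposite strand appears as ACTTCCGG or ACTTCCTG. Gm43852 (chr5:32714043-32714189, minus strand) held 5 sites, the most of any member, all of the form CAGGAAGT. Ppp4c (chr7:126792483-126792628, minus strand), which encodes the catalytic subunit of protein phosphatase 4, held 3. The member centred between the divergent starts of the zinc finger genes Zfp668 and Zfp646 (chr7:127876847-127876936, minus strand), the ribosomal protein genes Rpl37 (chr15:5116575-5116645, plus strand) and Rps18 (chr17:33955718-33955837, minus strand), and Cherp (chr8:72475136-72475254, minus strand) held 2 each.
Gm43852: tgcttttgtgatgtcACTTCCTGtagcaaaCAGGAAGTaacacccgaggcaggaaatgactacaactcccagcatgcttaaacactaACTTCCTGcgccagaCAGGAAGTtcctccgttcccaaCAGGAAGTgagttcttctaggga
Ppp4c: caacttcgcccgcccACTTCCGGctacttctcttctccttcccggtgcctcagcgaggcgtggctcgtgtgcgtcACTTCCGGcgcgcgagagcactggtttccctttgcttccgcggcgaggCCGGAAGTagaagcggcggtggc
Zfp668: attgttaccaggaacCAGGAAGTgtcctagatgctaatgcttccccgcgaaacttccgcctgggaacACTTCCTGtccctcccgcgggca
Rpl37: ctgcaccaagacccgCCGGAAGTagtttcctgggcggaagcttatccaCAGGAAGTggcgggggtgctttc
Rps18: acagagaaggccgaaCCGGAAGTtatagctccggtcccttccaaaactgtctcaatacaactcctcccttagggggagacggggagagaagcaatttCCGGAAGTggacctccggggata
Cherp: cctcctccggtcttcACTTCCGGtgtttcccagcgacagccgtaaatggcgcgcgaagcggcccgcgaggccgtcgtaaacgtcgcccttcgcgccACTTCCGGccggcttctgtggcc

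Single CCGGAAGT sites lay in members at 3 genes of the Ras and ETS pathways, and these are shown because the cells carry an activated Ras. They are Nras (chr3:103058310-103058359, plus strand), which encodes a Ras protein, Nf1 (chr11:79339653-79339702, plus strand), which encodes a Ras GTPase-activating protein, and Elk4 (chr1:132007531-132007580, plus strand), which encodes an ETS factor of the ternary complex group. Krt8 (chr15:102005416-102005618, minus strand) and Pkp3 (chr7:141079027-141079100, plus strand) are shown for contrast, since their members held no ETS site but 3 and 2 AP-1 sites, marked in capitals as TGACTCA or TGAGTCA. Krt8 encodes a keratin of simple epithelia and Pkp3 a desmosomal plakophilin.
Nras: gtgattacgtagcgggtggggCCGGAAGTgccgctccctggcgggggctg
Nf1: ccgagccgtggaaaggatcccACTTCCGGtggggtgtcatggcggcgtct
Elk4: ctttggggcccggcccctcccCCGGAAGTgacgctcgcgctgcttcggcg
Krt8: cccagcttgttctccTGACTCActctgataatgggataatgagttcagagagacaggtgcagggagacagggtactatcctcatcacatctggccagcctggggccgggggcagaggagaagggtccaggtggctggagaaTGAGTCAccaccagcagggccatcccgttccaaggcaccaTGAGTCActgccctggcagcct
Pkp3: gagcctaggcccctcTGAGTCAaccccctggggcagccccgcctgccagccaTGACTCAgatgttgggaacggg

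The windows at the midpoints of members were CpG-dense and CpG-poor in similar numbers. These classes describe the sequence at the midpoint, not at the start of the gene. Among coding genes with a member, 1671 had a CpG-rich, 871 an intermediate and 438 a CpG-poor start, of 7151, 5185 and 9602 such genes. Over 500 bp around the midpoint, 1204 members (34.7%, 33.1 to 36.3) were CpG-rich, with an observed to expected CpG ratio of at least 0.75 and a GC content of at least 55%. CpG-poor windows, with a ratio under 0.48, made up 1310 members (37.8%, 36.1 to 39.4), and the other 956 were intermediate. The CpG-rich share exceeded that of the 1499 promoter regions common to both lists by 4.94 percentage points (2.11 to 7.71) and that of the 1196 Etv5-only promoter regions by 8.78 points (5.78 to 11.7). CpG-poor members were fewer than among the common promoter regions, with a difference of -10.01 points (-13.01 to -7.01), and the difference from the Etv5-only promoter regions, -2.47 points, had an interval that included 0 (-5.69 to 0.72). Among the 5014 Etv4-only regions beyond 2 kb of a start, 0.519% were CpG-rich.

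The CpG classes differed in where they sat. Of the CpG-rich members, 89.6% had the midpoint within 250 bp of the nearest start, against 71.5% of intermediate and 24.7% of CpG-poor members. CpG-poor members spread over the whole 4 kb allowed, and 38.1% of them lay beyond 1 kb. Over all members 2087 (60.1%, 58.5 to 61.8) lay within 250 bp, which was 7.44 points (4.44 to 10.4) more than among the common promoter regions and 9.81 points (6.54 to 13.1) more than among the Etv5-only promoter regions. The members were centred on the start, with a median position of 4 bp downstream and quartiles of -158 and 171 bp. Upstream midpoints made up 48.5% (46.9 to 50.2), against 52.9% of the common promoter regions, and 60.8% of members spanned the start itself. By annotation, 43.3% of the midpoints fell in an exon, 32.4% in an intron and 24.3% outside genes.

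**Figure D1:**
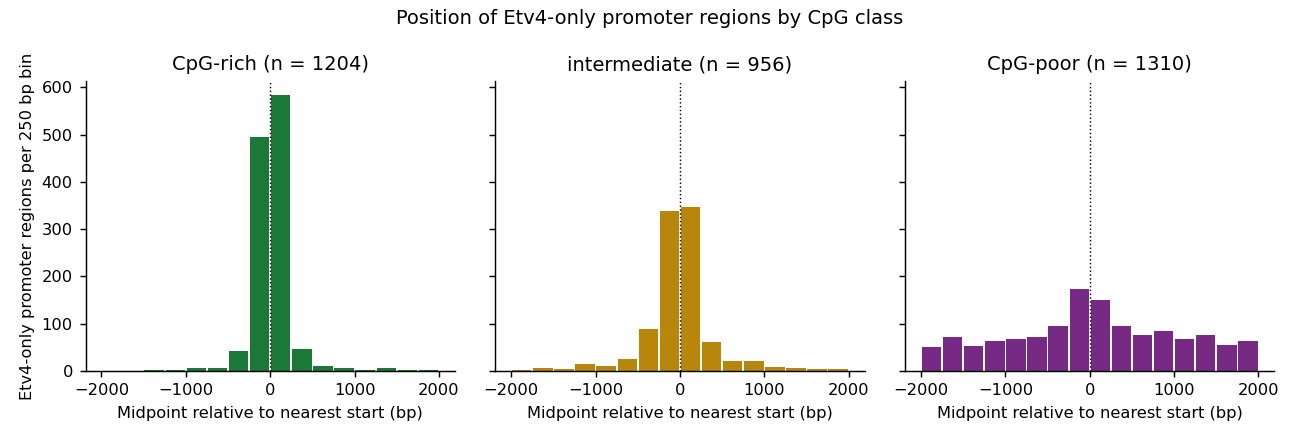
Number of Etv4-only promoter regions per 250 bp bin (y axis) by the distance of the midpoint from the nearest annotated start in bp (x axis, negative is upstream), for the 3 CpG classes. CpG-rich members stand in the bins next to the start, with 89.6% of them within 250 bp, whereas CpG-poor members are spread out to 2 kb, with 24.7% within 250 bp.

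The regions were short. The median length of a member was 531 bp, with quartiles of 383 and 654 bp and a range of 299 to 5265 bp, against a median of 722 bp for the common and 422.5 bp for the Etv5-only promoter regions. Length and overlap are not independent, because a longer region meets another list more readily. The region number given by the authors, whose criterion is not stated, placed 5.59% of members in the first 10% of the Etv4 list and 18.7% of the common promoter regions. The rule excluded overlap with Etv5 regions, and the median gap to the nearest one was 33.5 kb, against 32.9 kb for Etv4-only regions beyond 2 kb of a start. Of the members, 1404 (40.5%) had no Etv5 region within 50 kb, 694 (20%) had one within 5 kb and 176 (5.07%) had one within 500 bp. Sequence present in several copies made up most of 66 members (1.90%).

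Some regions fell close to the limits of the rule. Just inside 2 kb were the members upstream of Mtss1l at -1994 bp and of Gm48071 and Gm16044 at -1990 bp, and just outside were Etv4-only regions at -2003 bp from Gm41307, -2005 bp from Gm49064 and -2007 bp from Gm47741. The members at Stk40, Polr3k and Rrm2b lay 0, 2 and 6 bp from an Etv5 region. The regions at Slc3a2 and Rtn4 counted as common to both lists through overlaps of 5 and 8 bp.

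ETS sites were more frequent in members than at annotated starts as a whole. CCGGAAGT or CAGGAAGT, on either strand, occurred in the 500 bp window of 488 members (14.1%, 12.9 to 15.3) and in 8.20% of 500 bp windows centred on all 132596 annotated starts. CCGGAAGT alone, the form with a CpG, occurred in 8.79% (7.87 to 9.78) of members and 4.00% of starts. Weighting the starts to the CpG classes of the members gave a starts share of 9.67% and a ratio of 1.45 (1.34 to 1.58), and for CCGGAAGT a ratio of 1.49 (1.33 to 1.66). The same letters read backwards, TGAAGGAC or TGAAGGCC, gave a ratio of 1.02 (0.857 to 1.21). Neither of these words contains a CpG, so this ratio cannot serve as a background for CCGGAAGT. At the same time 85.9% of members held neither ETS form in the window.

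Members held ETS sites more often than Etv5-only promoter regions. The share with either form was 8.53% in Etv5-only promoter regions, 5.53 points (3.49 to 7.42) below the members, and their class-weighted ratio to starts was 0.922 (0.757 to 1.11). In the common promoter regions it was 12.2%, and the difference of 1.86 points had an interval that included 0 (-0.22 to 3.82). For CCGGAAGT the members exceeded the common promoter regions by 2.52 points (0.90 to 4.01). Within CpG-rich windows the shares with CCGGAAGT were 15.4% of members, 13.9% of common and 12.6% of Etv5-only promoter regions, and both differences had intervals that included 0. Among CpG-rich annotated starts the share was 10.8%. Within intermediate windows the members exceeded the common promoter regions by 5.27 points (1.65 to 8.31) and the Etv5-only promoter regions by 7.80 points (4.83 to 10.4). In CpG-poor windows CCGGAAGT was rare, at 0.763% of members, 1.54% of common and 1.25% of Etv5-only promoter regions, and the differences of -0.77 points (-2.02 to 0.16) and -0.48 points (-1.97 to 0.44) had intervals that included 0.

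Many ETS sites of members lay just upstream of the start. The 535 sites comprised 334 CCGGAAGT (62.4%) and 201 CAGGAAGT. Of all sites, 63.9% (59.7 to 68.0) were upstream, 37.2% lay in the 100 bp before the start and 14.8% in the 100 bp after it. The 2 forms differed in place: 67.1% (61.7 to 72.1) of the CCGGAAGT sites but 26.9% (20.9 to 33.6) of the CAGGAAGT sites were within 100 bp of the start. They also differed in setting, since 60.8% of the CCGGAAGT sites stood in CpG-rich windows and 51.7% of the CAGGAAGT sites in CpG-poor ones. In the common promoter regions 48.5% (38.6 to 58.6) of 103 CCGGAAGT sites were within 100 bp of the start, in the Etv5-only promoter regions 59.1% (46.3 to 71.0) of 66. Of all ETS sites, 73.4% (66.7 to 79.4) in the common and 53.9% (44.4 to 63.2) in the Etv5-only promoter regions were upstream. The site in sense orientation made up 54.8% (50.4 to 59.0), and the base after the motif was G in 49.0%. Most members with a site had a single one (445), 41 had 2, and 2 had more. The 47 adjacent pairs were a median of 48 bp apart.

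**Figure D2:**
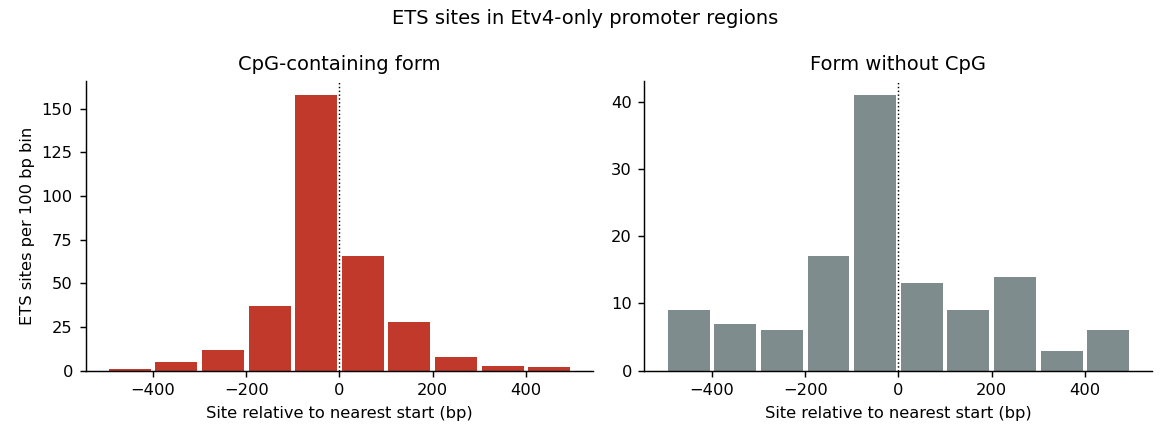
Number of ETS sites per 100 bp bin (y axis) in Etv4-only promoter regions by distance from the nearest start in bp (x axis, negative is upstream), for the form with a CpG (left) and without (right), each with its own y scale. Sites farther than 500 bp from the start are not drawn. The CpG form piles up in the 100 bp upstream of the start, with 67.1% of its sites within 100 bp on either side, against 26.9% for the other form.

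Read from the genes, those with CCGGAAGT at the start had a member more often. Protein-coding genes numbered 21938, of which 2980 (13.6%) had a member within 2 kb of a start. The share was 27.6% of the 1289 genes with at least 1 CCGGAAGT in the 500 bp at their start and 12.7% of the other 20649 genes, a difference of 14.9 points (12.5 to 17.5). Among genes with a CpG-rich start the shares were 31.5% and 22.4%, a difference of 9.08 points (5.76 to 12.6), and among those with an intermediate start 25.8% and 16.0%, a difference of 9.77 points (5.63 to 14.3). At CpG-poor starts the shares were 4.17% of 96 genes and 4.57% (difference -0.40 points, -2.97 to 5.68). Genes with several sites were few: 27.6% (25.0 to 30.3) of 1146 genes with 1 site and 28.0% (20.8 to 36.1) of 143 genes with 2 or more had a member, and the intervals overlapped.

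For the other kinds of region the difference between genes with and without CCGGAAGT was 2.15 points (0.79 to 3.77) for common and 1.97 points (0.65 to 3.53) for Etv5-only regions. At CpG-rich starts, genes with and without CCGGAAGT had a common region in 8.44% and 8.73% (difference -0.29 points, -2.18 to 1.97) and an Etv5-only region in 9.21% and 8.24% (0.96 points, -0.997 to 3.29). The contrast between these differences was not tested, and the lists differ in length. Without regard to the motif, 23.4% of genes with a CpG-rich start, 16.8% with an intermediate start and 4.56% with a CpG-poor start had a member.

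**Figure D3:**
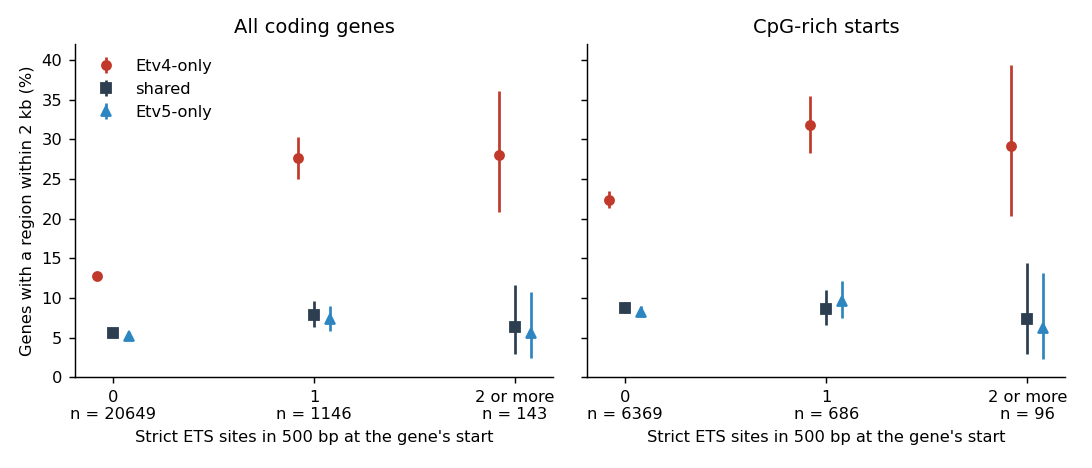
Share of protein-coding genes with a region within 2 kb of a start (y axis, %) by the number of CCGGAAGT sites in the 500 bp at the start (x axis, with the number of genes), for all genes (left) and genes with a CpG-rich start (right). Circles are Etv4-only, squares common and triangles Etv5-only promoter regions, and bars are exact 95% intervals. The circles stand at 12.7% without a site and 27.6% with 1 site in the left panel, whereas squares and triangles stay below 10%.

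AP-1 sites were more frequent in CpG-poor than in CpG-rich members. AP-1, the dimer of Fos and Jun proteins, binds TGACTCA or TGAGTCA. This motif occurred in 16.3% of members against 6.87% of starts, a class-weighted ratio of 2.82 (2.61 to 3.04), the highest of the 17 patterns searched. The share was 32.7% in CpG-poor members and 5.07% in CpG-rich ones, the reverse of the order for ETS sites (8.47% and 18.7%). The common promoter regions held it more often, in 27.3% overall and 47.8% of CpG-poor windows, and the members of that class differed by -15.02 points (-19.4 to -10.6). Among CpG-poor windows the share was also higher in Etv4-only regions beyond 2 kb of a start, at 46.2% (difference of members -13.5 points, -16.3 to -10.5), and lower in Etv5-only promoter regions, at 24.3% (8.42 points, 3.69 to 12.9). The motifs of TEAD (CATTCC after A or G and before A or T) and RUNX (TGTGGT before C or T) were also less frequent in members than in common promoter regions, with 8.53% and 15.9% against 12.9% and 20.1%, and occurred in 6.98% and 14.7% of starts. In Etv5-only promoter regions they occurred in 10.1% and 17.4%, and the differences of members, -1.59 points (-3.63 to 0.27) and -1.45 points (-3.997 to 0.94), had intervals that included 0. Within CpG-poor windows members differed from common promoter regions by -5.25 points (-8.76 to -1.91) for TEAD and -5.05 points (-9.16 to -1.04) for RUNX. Within CpG-rich windows both intervals included 0. Within intermediate windows that of RUNX included 0, and TEAD differed by -3.39 points (-7.34 to -0.10).

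Members and Etv5-only promoter regions also differed in some other promoter motifs. The CCAAT element of NF-Y (CCAAT after a pair of A or G and before C or G and then A or G) occurred in 10.4% of members and 16.97% of Etv5-only promoter regions, a difference of -6.60 points (-9.03 to -4.32), and in CpG-rich windows in 14.6% against 30%. The GC box of SP and KLF factors (GGGGCGGGG) was below the class-weighted share of starts in members, with a ratio of 0.679 (0.616 to 0.745), and at it in Etv5-only promoter regions (1.02, 0.885 to 1.16). The NRF1 motif (GCGCANGCGC) had the opposite order, with 7.90% of members and 4.35% of Etv5-only promoter regions, a difference of 3.55 points (1.99 to 4.94). The Kaiso motif, a palindrome with 2 CpG dinucleotides, was rare, at 1.47% of members, 0.534% of common and 0.251% of Etv5-only promoter regions, and its class-weighted ratio to starts was 2.03 (1.51 to 2.66) in members.

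**Figure D4:**
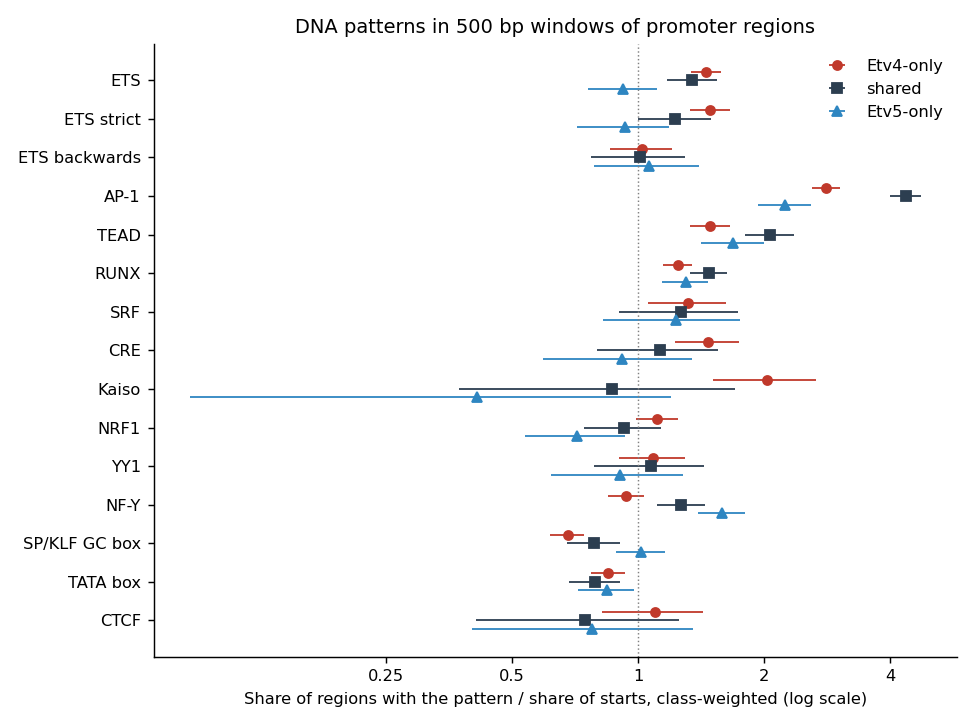
Share of regions with each pattern in 500 bp divided by the share of annotated starts weighted to the same CpG classes (x axis, log scale), for 15 of the patterns searched (y axis). Circles are Etv4-only, squares common and triangles Etv5-only promoter regions, bars are exact 95% intervals of the regions' share, and the dotted line marks equality with starts. Members lie at 1.45 for ETS and 2.82 for AP-1, left of the squares for AP-1 and of both other sets for NF-Y.

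Among the 27 gene classes counted, cytosolic ribosomal protein genes carried members most often. Against 13.6% of all protein-coding genes, a member lay at 56 of 83 cytosolic ribosomal protein genes (67.5%, 56.3 to 77.4), 33 of 78 mitochondrial ribosomal protein genes (42.3%), 11 of 20 hnRNP genes and 24 of 66 genes of the spliceosome and SR proteins (36.4%). Weighting all coding genes to the start classes of the 83 cytosolic genes gave 20.2%. Common regions lay at 11 of the 83 genes (13.3%) and Etv5-only regions at 4, against 5.65% and 5.29% of all coding genes. Of the 56 members whose nearest start was a cytosolic ribosomal protein gene, 44 lay within 250 bp of it, 12 held an ETS site and 13 were CpG-poor. Over all members these shares were 60.1%, 14.1% and 37.8%. The longest members at these genes were at Rpl7 (1621 bp, 26 bp downstream), a protein of the large subunit, and at Rpl10a (1524 bp, 194 bp downstream).

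The respiratory chain and ATP synthase had a member at 31 of 85 genes (36.5%, 26.3 to 47.6, class-weighted share 18.4%), among them Ndufb10 and Ndufa4 of complexes of the inner membrane and Atp5l of the ATP synthase, and 3 of the 85 (3.53%) had a common region, against 5.65% of all coding genes. RNA polymerase, general transcription factor and Mediator genes had one at 36 of 104 (34.6%, 25.6 to 44.6, class-weighted share 20.9%), including Polr2a, the largest subunit of RNA polymerase II, with a member of 1939 bp centred 98 bp upstream. DNA repair genes had a member at 18 of 53 (21.5 to 48.3%) and translation factors at 22 of 68 (21.5 to 44.8%), against class-weighted shares of 20.2% and 20.98%. In a further 6 lists the interval included the class-weighted share, which lay between 17.4% and 20.5%. These were autophagy (9 of 30), DNA replication (12 of 41), aminoacyl-tRNA synthetases (11 of 38), the cell cycle (16 of 56), proteasome subunits (11 of 39) and heat shock proteins with chaperonin (20 of 79). Psmd12 and Psma6, both proteasome subunits, held a CCGGAAGT in their members, as did Rars2, a mitochondrial arginyl-tRNA synthetase, and Hsp90ab1, a cytosolic chaperone.

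Vesicle transport (34 of 180, 18.9%), ubiquitin E2 enzymes, cullins and F-box proteins (19 of 119, 16.0%) and zinc finger genes with Zfp symbols (52 of 394, 13.2%) had intervals that included the class-weighted value of 19.1%, 16.6% and 15.3%. Odorant receptor genes had a member at 2 of 1135 (0.0213 to 0.635%) and vomeronasal receptor genes at 2 of 329 (0.0737 to 2.18%), each against a class-weighted 4.62%. Genes that mark other lineages, such as muscle, neurons and blood, had one at 1 of 46, the cardiac troponin gene Tnnt2, and the interval (0.055 to 11.5%) included the class-weighted 6.05%. Replication-dependent histone genes are clustered and share regions. Of 67 such genes, 35 (52.2%, 39.7 to 64.6) had a member and 34 had a common region, against a class-weighted share of 18.7% with a member.

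**Figure D5:**
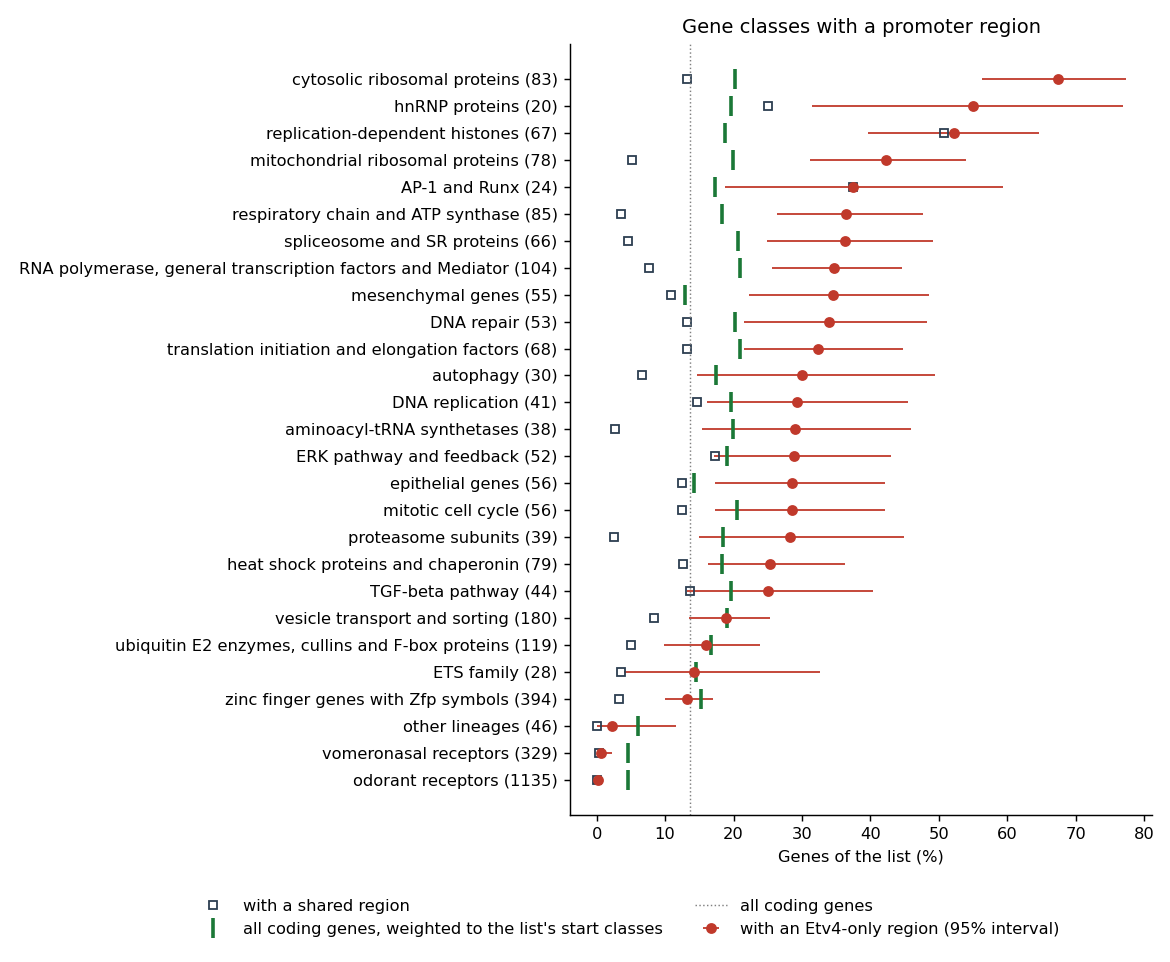
Share of genes of each class (y axis, with the number of genes) that have a region within 2 kb of a start (x axis, %). Circles with bars are Etv4-only regions with exact 95% intervals, open squares common regions, green ticks all protein-coding genes weighted to the start classes of the list, and the dotted line all protein-coding genes (13.6%). Cytosolic ribosomal protein genes stand at 67.5% with their tick at 20.2%, and odorant receptors stand at the left edge.

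Of the 20 longest members with a protein-coding nearest start, 13 were CpG-poor, 12 had the midpoint more than 500 bp downstream of the start, 7 belonged to histone genes and 2 held an ETS site. Among all members 37.8% were CpG-poor and 14.1% held an ETS site. Ptgs2, the inducible cyclooxygenase, had a member of 3578 bp (chr1:150099568-150103145) centred 1025 bp inside the gene. Plin2, a lipid droplet coat protein, had one of 2835 bp, Fam69b one of 2662 bp and Rcc1, the exchange factor of the Ran GTPase, one of 2491 bp. Rack1, a ribosome-associated scaffold protein, and Actb, which encodes cytoplasmic actin, had members of 2386 and 2093 bp centred 1600 and 1278 bp downstream. Gadd45b and Phlda1, both stress and growth factor response genes, had members of 2183 and 2166 bp centred 1941 and 1835 bp downstream. The longest member of all, 5265 bp, lay at Ccn2, which encodes a matricellular growth factor regulator, next to the start of the non-coding Gm15270.

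In the pathway lists below, a position is that of the midpoint of the longest member of the gene, in bp from the nearest start of that gene. Genes of TGF-β signalling had a member at 11 of 44 (25.0%, 13.2 to 40.3), an interval that included the 13.6% of all coding genes and the class-weighted 19.6%. Of the 19 members whose nearest start was in the list, 11 were CpG-poor, 7 lay within 250 bp of the start and 1 held an ETS site. Over all members these shares were 37.8%, 60.1% and 14.1%, and 63.6% of the genes of the list have a CpG-rich start. Pmepa1, a feedback inhibitor of Smad signalling, had a member of 2436 bp with 2 AP-1 sites, 1534 bp inside the gene. Tgif1, a Smad co-repressor, and Ltbp2, a latent TGF-β binding protein, had members at -27 and -90 bp. The inhibitors of differentiation Id1, Id2 and Id3 had members at 1973, -295 and 1 bp. The other genes were Ltbp3, Smad3, Smad7, Inhba, which encodes an activin subunit, and Acvr1, a type I receptor, and all of these except Inhba (173 bp) lay more than 500 bp from the start.

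Among genes of the ERK pathway a member lay at 15 of 52 (28.8%, 17.1 to 43.1), and the class-weighted share of 19.1% lay in this interval. Of the 23 members nearest to a gene of the list 14 were CpG-rich, where 59.6% of the genes of the list have a CpG-rich start. Of the same 23, 14 lay within 250 bp and 2 held an ETS site. Over all members the CpG-rich share was 34.7%, that within 250 bp 60.1% and that with an ETS site 14.1%. The list included genes of the cascade itself (Nras at 72 bp, Map2k1 at 11 bp, Map2k2 at -69 bp), the Ras inhibitors Nf1 at -87 bp and Spred2 at -58 bp, the ERK phosphatases Dusp1, Dusp4 and Dusp5 at 63, -9 and 1413 bp, and the ERK-regulated repressor Cic at 266 bp. The EGF receptor ligand gene Hbegf, the receptor inhibitor Errfi1, the early response genes Ier3 and Phlda1, and Myc, with 4 members near its starts, were also among them.

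The list of ETS family genes, which includes the GABP partner subunit Gabpb1, had a member at 4 of 28 genes (14.3%, 4.03 to 32.7). This was close to the class-weighted 14.5%. The genes were the ERK-regulated repressor Erf, Elf1, Elk4 and Gabpb1, which is not itself an ETS protein. All 4 members stood in CpG-rich windows, with CCGGAAGT in that of Elk4. AP-1 and Runx genes had a member at 9 of 24 (37.5%, 18.8 to 59.4, class-weighted share 17.3%) and a common region also at 9 of 24, against 5.65% of all coding genes. Those with a member were Fos, Jun, Batf2, Atf2, Atf4, Mafg, Runx1, Runx2 and Cbfb, the partner of Runx proteins. None of the 11 members nearest to a gene of the list held an ETS site, where 14.1% of all members did, and the count is small. Runx1 had 5 members. Bhlhe40, a circadian and stress-regulated repressor outside these lists, had 6, the most of any gene.

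Epithelial genes had a member at 16 of 56 (28.6%, 17.3 to 42.2) and mesenchymal genes at 19 of 55 (34.5%, 22.2 to 48.6), against class-weighted shares of 14.2% and 12.9%, and the intervals of the lists overlapped. The epithelial genes included keratins (Krt7 at -22 bp, Krt8 at -1066 bp, Krt18 at 98 bp), claudins (Cldn6 and Cldn7), desmosomal and junction genes (Pkp1, Pkp3, Ppl, Jup), the basement membrane genes Lamb3 and Itgb4, and the regulators Klf5, Grhl2 and Esrp2. The mesenchymal genes comprised the transition factors Snai1 at -32 bp, Snai2 at -208 bp and Hmga2 at -82 bp, the filament and matrix genes Vim at -26 bp and Fn1 at 30 bp, the tropomyosins Tpm1 and Tpm2, the proteases and inhibitors Mmp10, Mmp14, Plau, Timp1 and Timp3, the urokinase receptor Plaur, the adhesion receptors Cd44, Itga5 and Itgav, and Ccn1, Ccn2 and S100a4. CpG-poor windows were found in 18 of the 27 members nearest to a mesenchymal gene and 8 of the 18 nearest to an epithelial one. AP-1 sites were found in 6 and 4 of them and ETS sites in 1 and 2. Among all members 37.8% were CpG-poor, 16.3% held an AP-1 site and 14.1% an ETS site. Common regions lay at 7 of the 56 epithelial genes (12.5%) and 6 of the 55 mesenchymal genes (10.9%), against 5.65% of all coding genes. Etv5-only regions lay at 11 of the epithelial and 5 of the mesenchymal genes, against 5.29% of all coding genes.

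Starts that form a divergent pair on opposite strands held a share of members close to that of the other region sets. Of members, 171 (4.93%) lay between protein-coding starts at most 1 kb apart that point away from each other, against 4.94% of common and 4.77% of Etv5-only promoter regions. Genes of such pairs had a member in 28.6% (26.8 to 30.5) of 2410 cases and other genes in 11.7%, and with a CpG-rich start in 32.4% and 21.3%. Genes of pairs and other genes had a common region in 11.7% and 4.91% and an Etv5-only region in 10.4% and 4.65%. A region within 2 kb can count for both genes of a pair, and 175 of 1232 pairs (14.2%) held a member between their starts. ETS sites occurred in 38 of the 171 members (22.2%, 16.2 to 29.2) and in 16.2% of the common and 22.8% of the Etv5-only regions so placed. The longest lay between Hist1h2ak and Hist1h2bn, 2810408A11Rik and Neurl4, Zfp668 and Zfp646, Pno1 and Wdr92, and St13 and Xpnpep3.

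The nearest start belonged to a protein-coding gene in 2787 members (80.3%), 7.67 points (5.09 to 10.3) more than in the common promoter regions, and the difference from the Etv5-only promoter regions was -0.79 points (-3.30 to 1.86). The next classes were lincRNAs with 183 and antisense transcripts with 115, and miRNA, snoRNA and snRNA genes accounted for 44, 43 and 43. Of the 2980 coding genes with a member, 296 also had a common region and 2684 had none at any start. Of all 21938 coding genes, 1240 (5.65%) had a common region. A single member lay at 2613 of the 2980 genes. The share of coding genes with a member was 0 of 183 on the Y chromosome, 19 of 948 on the X chromosome and 6.98% on chromosome 14, and reached 21.9% on chromosome 15 and 21.97% on chromosome 19. The share with a common region was 0.211% on the X chromosome and 1.33%, 11.8% and 13.2% on chromosomes 14, 15 and 19. Copy number of the line was not measured here, and its part in these values was not tested.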

How the data were processed

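The authors made ChIP-seq libraries from EpRas cells, amplified with 15 PCR cycles, and called regions per library with CisGenome in its mode for a single sample (window 300 bp, p threshold 0.1, no input). The submitters' processing notes name Bowtie and mm10. The deposited files are BED lists whose values are positions on mm10. The deposited BED score is 1000 throughout and was not used, and the region number in the name column, of unstated meaning, served only as an order within the list. No depth is given.

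Samples were grouped by the antibody in the labels. Overlap meant at least 1 shared base. Starts were those of all transcripts in GENCODE M21, and a gene had a region when any of its starts lay within 2 kb of the midpoint, so genes with more annotated starts had more chances. Patterns and CpG content were read on both strands in 500 bp of GRCm38 around the midpoint and around each start. Multicopy sequence was counted with 36-base words. Intervals are Clopper-Pearson and Newcombe (95%). No test across regions or antibodies was made. The gene lists (27), the patterns (17) and the members were chosen with earlier results of these data known. Named genes were the 20 longest members at coding genes, the 10 with most ETS sites, up to 4 per list by length, all of the TGF-β, ERK, ETS, AP-1, epithelial and mesenchymal lists, the 5 longest between divergent starts, and 3 on each side of each limit. Some genes that this rule picks are not reported here. Genes with most members, and the sequences of Krt8, Pkp3, Nras, Nf1 and Elk4, were picked after their values were seen. Functions were tested on simulated data. Scripts ran in Python 3.11.15 (scipy 1.17.1, pandas 2.3.3, numpy 2.4.6, matplotlib 3.10.9, numba 0.67.0). Alternatives were other distances to a start (1 and 5 kb), coding starts only, a gap of 500 bp to Etv5 regions, the longer 50% of each list, no multicopy regions, a 200 bp window or the whole region, and a strict or loose ETS pattern. Added after seeing the data were 3 alternatives for the ribosomal protein genes.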

Additional observations from a re-analysis of the deposited data

How the results depend on the processing

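Each of 6 results was recomputed under its alternatives: 31 values stayed within the interval of the reported value and 15 did not, and no difference with an interval apart from 0 changed sign. The ETS share of members (14.1%) became 12.8% with starts up to 5 kb away, 7.03% in a 200 bp window, 8.79% with CCGGAAGT alone and 83.3% with the loose pattern GGAA between A or C and A or G, the shorter window and pattern choice acting by construction. The ETS difference from common promoter regions (1.86 points) was above 0 in 9 of 11 settings, and was -2.06 points over the whole region, where common regions are longer, and -2.00 with the loose pattern. Its interval excluded 0 with a 500 bp gap (2.98 points, 0.985 to 4.88), in the longer 50% of each list (3.59, 0.498 to 6.42), in the 200 bp window (1.63, 0.131 to 2.999) and for CCGGAAGT. The CpG-rich difference (4.94 points) was above 0 in all 9 settings and rose to 17.5 points in the longer 50% of each list. The share within 250 bp (60.1%) was 71.6%, 46.1%, 63.4% and 62.3% with 1 kb, 5 kb, coding starts and the longer 50%. The share of coding genes with a member (13.6%) was 12.3%, 16.7%, 13.05% and 6.87% with 1 kb, 5 kb, the 500 bp gap and the longer 50%. The count of cytosolic ribosomal protein genes (56 of 83) was 51 with midpoints within 250 bp, 56 without multicopy regions and 31 in the longer 50% of each list, 3 settings added after seeing the data. No paired analysis was possible because there was 1 library per antibody and no replicate number. The depth behind the lists is unknown, so a missing Etv5 region cannot be told apart from a shallower library or a weaker antibody.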

Other observations

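The other patterns searched gave the following values. The cyclic AMP response element TGACGTCA occurred in 3.63% of Etv4-only promoter regions, a class-weighted ratio to starts of 1.47 (1.23 to 1.74), and in 2.47% of common and 2.09% of Etv5-only promoter regions. The E-box CACGTG of USF and MYC gave a ratio of 1.14, the SRF motif 1.32 (1.06 to 1.62), the YY1 motif AAGATGGCG 1.09, the CTCF motif 1.09 and the TATA box (TATA, then A or T, A, and A or T) 0.849 (0.772 to 0.931). Genes with many separate members, picked after their values were seen, included Brd2, a bromodomain reader of acetylated histones, Rpl3, a large subunit ribosomal protein, and Trmt2a, a tRNA methyltransferase, with 5 each, and Cttn, an actin-binding protein, Klf6, a zinc finger transcription factor, and Rbfox2, a splicing regulator, with 4 each.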
